A study of Homo sapiens with 36 samples.

Results

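HNRNPH1 was silenced in TC32 cells, a human Ewing sarcoma cell line, and gene expression was set against cells given a control siRNA. The 9 siHNRNPH1 arrays (siRNAs A2, A3 and Q3, replicates 1 to 3 of each) and the 3 siNeg arrays that were normalized with them by the authors (siNeg replicates 4 to 6) were chosen by their labels, 12 of 36 arrays in all. siNeg is a negative control siRNA. Per the labels the dose was 20 nM and RNA was taken at 48 h in every group. That includes arrays labelled Untreated, a name that implies no siRNA. In the other 24 arrays SUPT6H or SF3B1 was silenced with 3 siRNAs each (A1, A3 and Q3; A2, A3 and Q3), beside siNeg replicates 1 to 3 and Untreated cells, and these serve only as a setting for the siHNRNPH1 values. All arrays came from 1 cell line, and the labels do not say whether replicates were separate cultures, so the p-values measure only the spread between these arrays, which may be technical.

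The protein of HNRNPH1 binds runs of G in RNA and can promote either the inclusion or the skipping of an exon. Ewing sarcoma is driven by a fusion of EWSR1 with an ETS family gene, most often FLI1, and the EWS-FLI1 protein activates some genes and represses others, among them genes of mesenchymal cells. In cells whose EWSR1 breakpoint leaves an out-of-frame EWSR1 exon in the fusion pre-mRNA, TC32 among them, HNRNPH1 is known to take part in the skipping of that exon.

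Values are log2 intensities after background correction and normalization of the deposited bead signals, so a change of 1 is a doubling. A gene was called where the Benjamini-Hochberg adjusted p of limma over 11437 genes was below 0.05. The siHNRNPH1 mean weights the 3 siRNAs equally, and its SE and adjusted p leave out the spread among siRNAs. The verbs rose and fell with each siRNA are kept for genes called with A2, A3 and Q3 in 1 direction. In RNA from a whole culture, fewer cells of a type and less RNA per cell cannot be told apart.

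Between 14426 and 15901 probes were detected on the siHNRNPH1 arrays and between 15319 and 15717 on the siNeg arrays. Arrays of a group correlated at 0.988 to 0.992, and siHNRNPH1 with siNeg arrays at 0.962 to 0.970. Of 12 fixed Ewing sarcoma markers 10 had a probe and 7 were detected on all 12 arrays, among them CD99 and the transcription factor NKX2-2. No endothelial marker was detected on any array, and 10 of 13 blood cell, 8 of 15 epithelial and 11 of 15 skeletal muscle markers with a probe were at background on all 12.

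HNRNPH1 mRNA was lowered by every siRNA. Its level was 8.93, 8.69 and 8.94 with A2, 8.96, 8.74 and 9.04 with A3 and 8.65, 8.87 and 8.82 with Q3, against 10.29, 10.10 and 10.21 with siNeg. All 9 silenced arrays lay below all 3 siNeg arrays. The mean change was -1.35 (SE 0.09, adjusted p = 9.07e-18), which left 39.2% of the siNeg level (95% interval 34.4 to 44.8). The siRNAs gave -1.35, -1.29 and -1.42 with A2, A3 and Q3 and were not called different from each other (limma F test, adjusted p = 0.637). The second HNRNPH1 probe fell by 1.24.

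Its closest relatives did not move as a family. HNRNPH2, a near copy of HNRNPH1, was at 9.06, 9.0 and 9.03 with A2, 8.10, 8.06 and 8.28 with A3 and 9.62, 9.21 and 9.19 with Q3, against 8.78, 8.73 and 8.74 with siNeg. A2 and Q3 arrays lay above and A3 arrays below every siNeg array, so the mean change of 0.09 (adjusted p = 0.454) stood for neither: the siRNAs gave 0.28, -0.60 and 0.59 (adjusted p = 0.0433, 2.65e-05 and 2.9e-05). They differed with an adjusted p of 4.21e-12 in the F test. Transcripts of near copies can share probe sequence, and this was not tested here. HNRNPH3 rose by 0.47 (SE 0.11, adjusted p = 0.000207) and the changes of HNRNPF and GRSF1, the other members that bind G-runs, were 0.14 (adjusted p = 0.331) and 0.17 (adjusted p = 0.0849). The rise of HNRNPH3 depended on the siNeg arrays: against siNeg replicates 1 to 3 its change was -0.41.

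**Figure D1:**
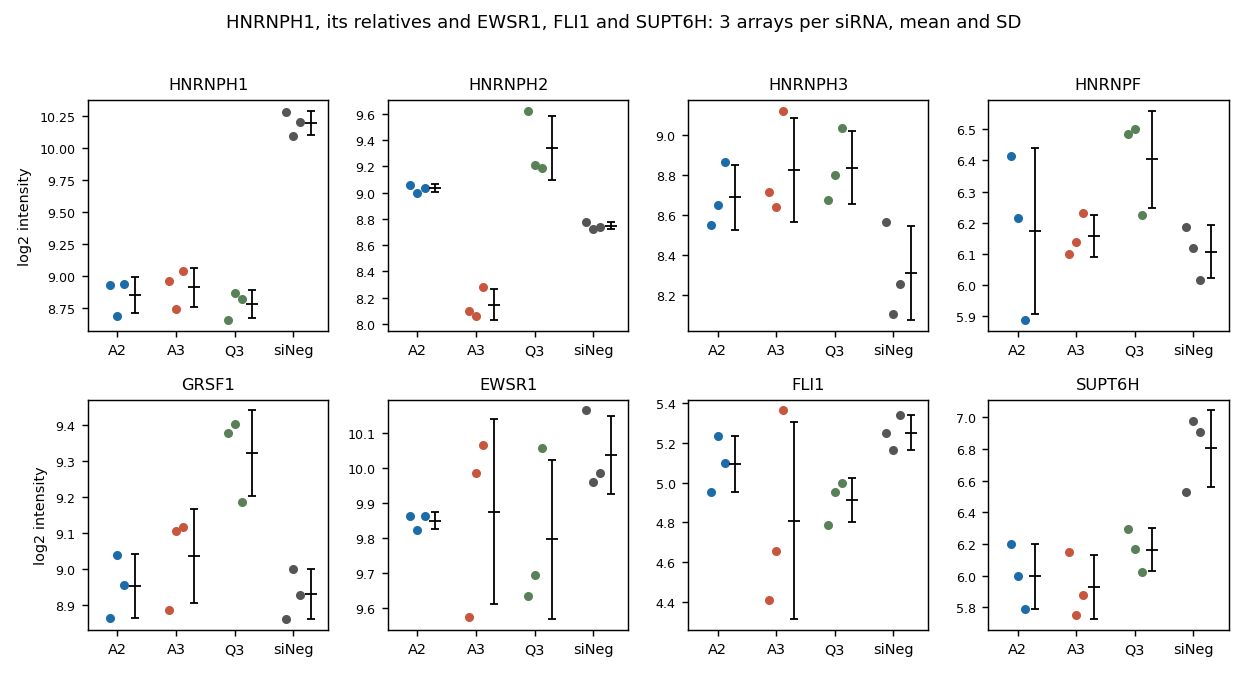
Log2 intensity on single arrays of siRNAs A2, A3 and Q3 and of siNeg replicates 4 to 6, with the mean and SD of 3 arrays beside each set of points (each vertical axis has its own range). HNRNPH1 and SUPT6H lie below siNeg on all 9 arrays, while HNRNPH2 lies above siNeg with A2 and Q3 and below it with A3.

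The partners of the fusion oncogene moved little against siNeg replicates 4 to 6, and their calls depended on the probe and the arrays. EWSR1 was at 9.86, 9.82 and 9.86 with A2, 9.57, 9.99 and 10.07 with A3 and 9.63, 9.69 and 10.06 with Q3, against 10.17, 9.96 and 9.99 with siNeg, and the groups overlapped (change -0.20, SE 0.09, adjusted p = 0.0779). A second EWSR1 probe gave -0.26 (adjusted p = 0.012) and another 0.11 (adjusted p = 0.45). The first was called without A3 replicate 3 (-0.23), without Q3 replicate 3 (-0.24) and against all 6 siNeg arrays (-0.18). FLI1 lay near the detection limit, with 4 of 9 siHNRNPH1 and 3 of 3 siNeg arrays detected, and its change was -0.31 (SE 0.13, adjusted p = 0.0521). It was called without A2 replicate 2 (-0.33), A3 replicate 3 (-0.40) or Q3 replicate 3 (-0.33). Where these probes lie relative to the fusion breakpoint was not examined, so the values do not measure the fusion transcript. FLI1 averaged 5.25 in siNeg replicates 4 to 6, 6.46 in siNeg replicates 1 to 3 and 6.68 in Untreated cells. Its change was thus -1.52 against siNeg replicates 1 to 3 (adjusted p = 1.9e-14) and -0.92 against all 6 siNeg arrays (adjusted p = 1.66e-05), both called. SUPT6H, whose product travels with RNA polymerase II and handles histones, fell with each siRNA, by 0.78 in the mean (SE 0.12, adjusted p = 2.28e-07), and the change of SF3B1 was -0.08 (adjusted p = 0.477).

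Across the genome 5160 of 11437 genes (45.1%) were called in the mean of the 3 siRNAs, 2467 higher and 2693 lower. With the siRNA as a random block, which counts the spread among siRNAs, the count was 1622, and it was 2369 when each siRNA mean stood as 1 replicate. Of the genes named here as rising or falling, the random block took the call in the mean from HNRNPH3, UPP1, VRK1, IL1RAP, AURKB, IGF2R, HNRNPUL2, SRSF6, SMG5, NBAS, SMG9, BNIP3L, HSPA1A, HSPA1B, RPS28, RPL13, AADACL4, SOX1-OT, SNORD31 and SNORD14A, and siRNA means took it from IL1RAP and SNORD14A. Against siNeg replicates 1 to 3 the call was lost by VEGFA (-0.22), TAF15 (-0.14), SRSF7 (-0.14), SRSF6 (-0.06) and NBAS (-0.08). LIG1 (-0.18), UPP1 (-0.15), AURKB (-0.15) and CD68 (0.05) lost it too, as did SMG9 (0.01), DUSP6 (-0.04), MSMO1 (-0.09) and RPL13 (-0.17). Changes against these arrays were smaller for LSM8 (-0.48), CCNE1 (-0.41), CENPA (-0.52), HSPB1 (0.30), HNRNPDL (-0.35) and RBMX (-0.33). They were also smaller for SMG5 (-0.37), MAGOH (-0.29), MX1 (-0.61), SOX1-OT (-0.33) and SNHG1 (-0.46). Alone, A2 called 40.9% of genes, A3 39.6% and Q3 42.0%. In 1 direction with each siRNA, 1079 genes (9.43%) rose and 1142 (9.99%) fell, 19.4% in all. The mean change was over 1 for 305 of those that rose and below -1 for 149 of those that fell. These shares are the background against which the gene lists below are read. The lists were chosen with earlier results of these data known, so their counts are descriptions. Some genes stand in several lists, so the counts are not separate from each other. TAGLN and TIMP3 are in the matrix and EWS-FLI1 repressed lists, and IGFBP3 is in the EWS-FLI1 repressed and IGF lists.

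MGP, IGFBP3 and COL1A1 were among the 15 largest rises. MGP, a matrix protein that inhibits calcification, was at 12.79, 12.83 and 12.75 with A2, 12.72, 12.67 and 12.71 with A3 and 10.85, 10.57 and 10.58 with Q3, against 7.69, 7.80 and 7.41 with siNeg. The lowest silenced array was far above the highest siNeg array, and Q3 arrays formed a lower set of their own. Its mean change was 4.42 (SE 0.08, adjusted p = 1.98e-42). IGFBP3, a secreted binding protein of insulin-like growth factors, was at 10.74, 10.77 and 10.60 with A2, 12.29, 12.21 and 12.17 with A3 and 9.34, 9.51 and 9.37 with Q3, against 6.68, 6.90 and 6.63 with siNeg. Here the 3 siRNAs gave 3 separate levels, all above siNeg, with a mean change of 4.04 (SE 0.11, adjusted p = 1.30e-34). COL1A1, a chain of type I collagen, was at 10.02, 10.14 and 9.74 with A2, 9.67, 9.55 and 9.43 with A3 and 7.99, 8.11 and 8.03 with Q3, against 5.4, 5.67 and 5.46 with siNeg (change 3.67, SE 0.12, adjusted p = 6.29e-32).

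Other large rises were of CRABP2, which carries retinoic acid in the cell (3.91), TRIM55, a muscle ring finger protein (3.82), and SPRY1, an inhibitor of receptor tyrosine kinase signalling (3.50). The transcription factor PRRX1 of mesenchymal cells rose by 3.48 and the Wnt inhibitor DKK1 by 3.36. The chemokine CCL2 (3.31), VASN, which binds TGF-beta (3.28), SULF2, which trims sulfate from heparan sulfate chains (3.24), the stress-responsive gene IER3 (3.17) and the receptor NRP1 (3.10) followed. TGM2, a protein crosslinking enzyme, and the scavenger receptor COLEC12 were detected on 9 of 9 siHNRNPH1 arrays and on no siNeg array, so their rises are bounds of at least 8.33-fold and at least 7.86-fold. Measured means were 7.96 with siHNRNPH1 and 4.45 with siNeg for TGM2, and 7.87 with siHNRNPH1 and 4.38 with siNeg for COLEC12. Probes of a gene could differ in size: SULF2 gave 3.24, 2.01 and 0.83 and NRP1 3.10 and 1.55 on their probes. The other probes of TGM2 gave measured changes of 0.69 and 0.85 in the mean and -0.14 and 0.14 with Q3. Both were detected on 6 of 9 siHNRNPH1 arrays and on no siNeg array, and neither was called with each siRNA.

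**Figure D2:**
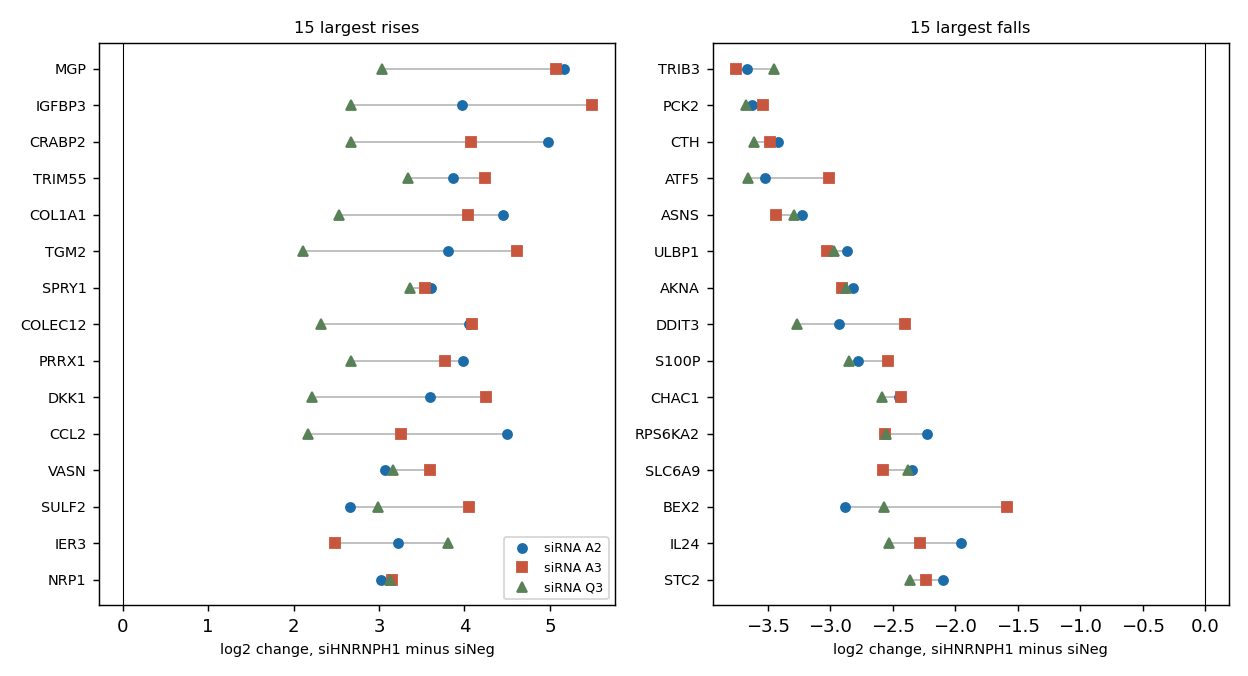
Log2 change (siHNRNPH1 minus siNeg) with each siRNA for the 15 genes that rose most and the 15 that fell most among genes called with each siRNA; TGM2, COLEC12, ULBP1 and CHAC1 are at measured values although 1 group was not detected. The 3 siRNAs span at most 1.30 for the falls and up to 2.82 for the rises, of which 11 of 15 are smallest with Q3.

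Of 38 extracellular matrix and mesenchymal genes measured, 22 rose with each siRNA and 0 fell (57.9%, against 9.43% of all genes), and the median change was 0.76, against -0.02 over all genes. Collagens went up unequally: COL5A1 rose by 2.48, COL6A1 by 1.74 and COL4A1 by 1.59, whereas COL1A2, singled out after its values were seen, gave -0.06 and was not called. TAGLN (2.52) and TPM1 (2.03) encode actin-binding proteins and BGN (1.69) a small matrix proteoglycan. SNAI2, a repressor of epithelial genes, was at 6.98 with siHNRNPH1 and at 4.44 with siNeg, where no array detected it, a rise of at least 4.22-fold. TIMP3, an inhibitor of metalloproteinases, was detected on 7 of 9 siHNRNPH1 arrays, 1 of them with Q3, and on 0 of 3 siNeg arrays. It was called with A2 and A3 but not with Q3, and was at least 2.65-fold higher in the mean (6.31 with siHNRNPH1 and 4.57 with siNeg). The summed linear signal of the list was 32884 to 54453 on siHNRNPH1 arrays and 19992 to 21714 on siNeg arrays, which did not overlap. Of 6 epithelial markers that passed the filter CDH3 (P-cadherin) rose by 2.86, and ESRP1, detected on 0 of 9 siHNRNPH1 and 1 of 3 siNeg arrays, was lower (4.32 with siHNRNPH1 and 4.88 with siNeg). Of 3 blood cell markers 2 rose with each siRNA. CD68 rose by 0.61, but gave 0.05 against siNeg replicates 1 to 3 and 0.32 on its second probe, which was not called. The part of cells of another type in these values was not tested.

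Genes known to be repressed by EWS-FLI1 were higher more often than lower. Of 26 measured, 13 rose with each siRNA and 0 fell, and in the mean of 3 siRNAs 19 were higher and 3 lower, against 21.6% and 23.5% of all genes. The median change was 1.27. IGFBP3, SPRY1 and DKK1 are above. CDKN1A, which encodes the cell cycle inhibitor p21, was at 10.87, 10.80 and 10.64 with A2, 11.17, 11.31 and 11.22 with A3 and 10.62, 10.42 and 10.57 with Q3, against 8.54, 8.99 and 8.94 with siNeg. Again no arrays overlapped (change 2.02, SE 0.09, adjusted p = 2.94e-26). PHLDA1, a regulator of cell survival, rose by 1.87 and CCN1, a matrix-associated signalling protein, by 1.54. THBS1, an adhesive glycoprotein, was detected on all 9 siHNRNPH1 arrays and on no siNeg array (at least 2.13-fold). DUSP6, a phosphatase of ERK kinases, rose by 1.51 against siNeg replicates 4 to 6 but gave -0.04 against replicates 1 to 3. EPHA2 (-0.43), JUN (-0.34) and CALD1 (-0.20) were lower in the mean only, and were singled out after their values were seen.

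Genes known to be activated by EWS-FLI1 were lower more often than higher. Of 37 measured, 9 fell with each siRNA (24.3%, against 9.99% of all genes), 1 rose, and 21 were lower and 3 higher in the mean; the median was -0.25. MYC was at 10.02, 9.74 and 9.82 with A2, 9.49, 9.41 and 9.52 with A3 and 9.94, 9.79 and 9.96 with Q3, against 10.72, 10.59 and 10.67 with siNeg. The groups did not overlap, and its fall was 0.92 (SE 0.08, adjusted p = 1.54e-13). HOXD13, a homeobox gene, changed by -1.13 and EZH2, the histone methyltransferase of polycomb complex PRC2, by -0.90. STEAP2 (-0.72), UPP1 (-0.57), VRK1 (-0.50), IL1RAP (-0.49) and AURKB (-0.47) fell too, while PHF19, a polycomb-associated protein, rose by 0.99. The other IL1RAP probe gave 0.24 (adjusted p = 0.134), and the mean of its kept probes gave -0.12 (adjusted p = 0.334). Neither was called. AURKA was called with A2 (-0.82) and A3 (-0.93) but not with Q3 (-0.14). With A2 and A3 alone 17 of the 37 fell, and with the mean of all kept probes of a gene 5 did.

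**Figure D3:**
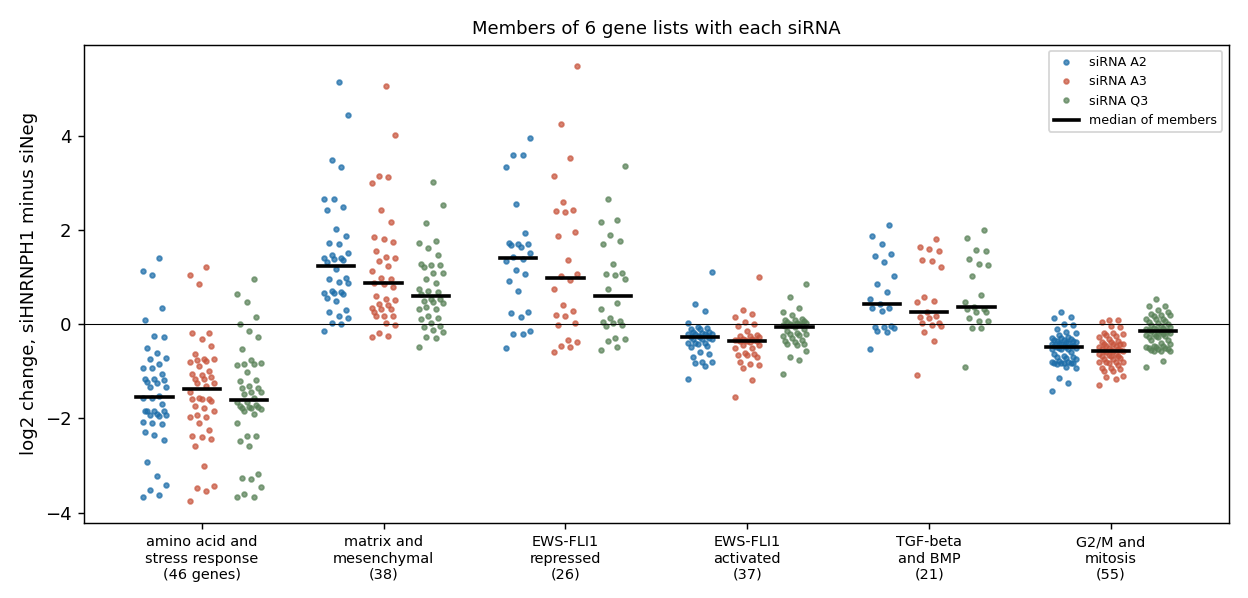
Log2 change (siHNRNPH1 minus siNeg) of every measured member of 6 gene lists, with siRNAs A2, A3 and Q3 side by side and the median of the members as a bar (members not detected in a group are at measured values). The stress response genes lie low with all 3 siRNAs (medians -1.54, -1.38 and -1.61), whereas the medians of EWS-FLI1 repressed targets were 1.41, 0.99 and 0.60 and those of G2/M genes -0.48, -0.56 and -0.15.

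The IGF axis was led by its secreted binding proteins. Of 17 genes measured 5 rose with each siRNA (29.4%, against 9.43% of all genes) and 0 fell, with a median of 0.24. Besides IGFBP3, IGFBP6 rose by 1.86 and IGFBP7 by 1.74. IGF2R, the receptor that clears IGF2, rose by 0.48. The growth factor IGF1 was detected on 0 of 12 arrays, and its receptor IGF1R was not called (0.13); both were singled out after their values were seen. H19, the non-coding neighbour of IGF2, was detected on 8 of 9 siHNRNPH1 and on 0 of 3 siNeg arrays, at least 2.16-fold higher.

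In the TGF-beta and BMP pathway 10 of 21 genes rose with each siRNA (47.6%, against 9.43% of all genes) and 1 fell. The median was 0.26. Among receptors TGFBR3 (1.93), TGFBR2 (1.45) and BMPR2 (0.88) rose. TGFBR2 was at 8.72, 8.59 and 8.50 with A2, 8.37, 8.15 and 8.25 with A3 and 8.23, 8.13 and 8.19 with Q3, against 6.82, 6.98 and 6.88 with siNeg, with no overlap. Targets of the pathway rose as well: ID1 by 1.70 and ID3 by 1.70, both inhibitors of helix-loop-helix factors, SMAD6, an inhibitor of BMP signalling, by 1.42, and the matrix protein TGFBI by 1.38. Of the ligands, BMP2 fell by 0.84, and TGFB2 was at 5.44 with siHNRNPH1 and at 4.53 with siNeg, where it was not detected (at least 1.46-fold higher).

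Of the 15 largest falls 9 were of amino acid and integrated stress response genes. The integrated stress response is a pathway in which stress kinases slow translation while the transcription factor ATF4 raises genes of amino acid synthesis and uptake, tRNA charging and redox balance. Of 46 such genes measured, 37 fell with each siRNA (80.4%, against 9.99% of all genes) and 2 rose, and the median change was -1.52. TRIB3, a pseudokinase induced by ATF4, was at 8.16, 7.96 and 7.93 with A2, 7.93, 7.94 and 7.91 with A3 and 8.11, 8.28 and 8.29 with Q3, against 11.54, 11.94 and 11.57 with siNeg. All 9 arrays lay in a narrow band over 3 units below siNeg. The change was -3.63 (SE 0.09, adjusted p = 3.07e-36), and 8.10% of the siNeg level was left. ASNS, asparagine synthetase, was at 9.25, 9.0 and 9.15 with A2, 8.89, 8.99 and 8.89 with A3 and 8.93, 9.19 and 9.09 with Q3, against 12.24, 12.36 and 12.48 with siNeg (change -3.32, SE 0.08, adjusted p = 2.34e-37). Neither gene was called different among siRNAs (F test, adjusted p = 0.0787 for TRIB3 and 0.194 for ASNS).

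PCK2, the mitochondrial form of phosphoenolpyruvate carboxykinase, fell (-3.61), as did CTH, which makes cysteine (-3.50), and the transcription factor ATF5 (-3.40). DDIT3, also known as CHOP, was at 6.85, 6.63 and 6.82 with A2, 7.43, 7.25 and 7.20 with A3 and 6.46, 6.51 and 6.32 with Q3, against 9.62, 9.69 and 9.77 with siNeg, a change of -2.87 that did differ among siRNAs (F test, adjusted p = 5.73e-08). CHAC1, which breaks down glutathione, was detected on 0 of 9 siHNRNPH1 arrays and on 3 of 3 siNeg arrays, at least 3.59-fold lower. The glycine transporter SLC6A9 (-2.43) and the secreted glycoprotein STC2 (-2.23) fell. Singled out after their values were seen, ATF4 itself (-1.84), PSAT1 and PHGDH of serine synthesis (-2.07 and -1.39) and the tRNA synthetases SARS1, GARS1, WARS1, AARS1 and NARS1 (-1.81 to -1.18) fell. The members that rose, SDF2L1 (1.20) and CRELD2 (0.94), belong to the endoplasmic reticulum, as does the chaperone HSPA5 (0.44, called in the mean but not with A3).

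These genes were high in all 3 sets of control arrays. TRIB3 averaged 8.02, 7.93 and 8.23 with A2, A3 and Q3, and 11.68 in siNeg replicates 4 to 6, 11.28 in siNeg replicates 1 to 3 and 10.96 in Untreated cells. The median level of the 46 genes was 7.97 with siHNRNPH1, against 9.57 in siNeg replicates 4 to 6, 9.45 in siNeg replicates 1 to 3 and 9.09 in Untreated cells. The summed linear signal was 20865 to 23549 on siHNRNPH1 arrays and 65487 to 69907 on siNeg arrays. The siNeg replicates 1 to 3 and Untreated arrays were normalized by the authors in another run than siHNRNPH1, and were normalized together with them here.

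**Figure D4:**
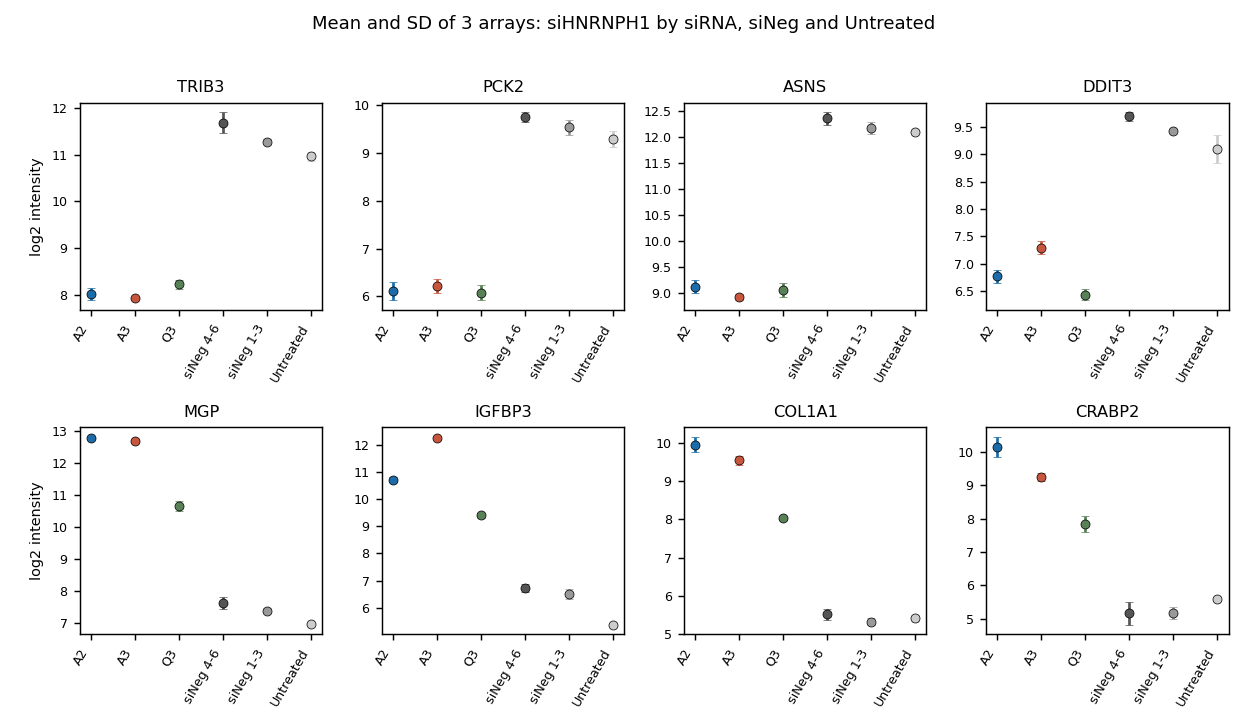
Mean log2 intensity and SD of 3 arrays for siRNAs A2, A3 and Q3, siNeg replicates 4 to 6, siNeg replicates 1 to 3 and Untreated cells (each vertical axis has its own range). The 4 stress response genes in the upper row are low with the 3 siRNAs and high in the 3 control sets, and the 4 genes in the lower row are high with the 3 siRNAs and low in the control sets.

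ATF4 and its partners of the C/EBP family are known to bind an element that holds TGATGNAA, and promoters of the list were searched for these letters on both strands. The window was the 250 bases before the gene's start in RefSeq's table for GRCh38.p14, which held 41 of the 46 genes. The letters were found in 5 of 33 promoters of genes that fell with each siRNA (15.2%) and in 0 of 8 other list members. They were in 1.76% of promoters of all genes tested and in 3.14% of all promoters in the table. For list genes 1 promoter was taken per gene, whereas the latter shares count every promoter (13405 for the 11437 genes tested). A match is a description of sequence and not a binding site. The list holds genes of a pathway that ATF4 drives, so its share does not bear on siHNRNPH1. The 8 promoters of other members are too few for a comparison. The 5 promoters are shown because their genes fell together, 30 bases each on the gene's strand, with the match in capitals.
CHAC1, chr15:40953251-40953280, plus strand: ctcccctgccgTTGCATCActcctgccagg
CEBPG, chr19:33374060-33374089, plus strand: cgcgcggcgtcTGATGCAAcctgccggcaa
SLC1A5, chr19:46784893-46784922, minus strand: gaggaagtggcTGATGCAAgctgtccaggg
AARS1, chr16:70289675-70289704, minus strand: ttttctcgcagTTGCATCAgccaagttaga
GARS1, chr7:30594834-30594863, plus strand: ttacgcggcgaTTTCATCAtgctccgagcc
CEBPG, a C/EBP family factor, fell by 1.80, the glutamine transporter SLC1A5 by 1.30, the glycyl-tRNA synthetase GARS1 by 1.75 and the alanyl-tRNA synthetase AARS1 by 1.44.

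Falls outside that list included ULBP1, a ligand of the natural killer cell receptor NKG2D, which was detected on 0 of 9 siHNRNPH1 arrays and on 3 of 3 siNeg arrays (at least 6.34-fold lower). AKNA, an AT-hook protein (-2.87), the calcium-binding protein S100P (-2.72), the kinase RPS6KA2 (-2.45), BEX2 (-2.35) and the cytokine IL24 (-2.25) fell too. S100P was detected on 1 of 9 siHNRNPH1 arrays. BEX2 fell least with A3 (-2.88, -1.59 and -2.58).

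Genes of G2/M and mitosis were lower, and changed least with Q3 in 44 of 55. Of these genes, 18 fell with each siRNA (32.7%, against 9.99% of all genes) and 0 rose. In the mean 43 were lower and 1 higher, against 23.5% and 21.6% of all genes, and the median was -0.41. UBE2C, a ubiquitin-conjugating enzyme of mitotic exit, was at 10.83, 10.76 and 10.89 with A2, 10.67, 10.57 and 10.72 with A3 and 11.23, 11.08 and 11.34 with Q3, against 11.60, 11.62 and 11.69 with siNeg. Q3 arrays stood between the others and siNeg. The phosphatase CDC25B fell by 1.08, the kinetochore motor CENPE by 0.90, the centromere histone CENPA by 0.81 and the kinase PLK1 by 0.79. With A2 and A3 alone 43 of the 55 fell. Of 52 DNA replication and G1/S genes 7 fell with each siRNA (13.5%, against 9.99% of all genes) and 0 rose, and 18 changed least with Q3. CCNE1, cyclin E1, fell by 1.08, RFC4 of the clamp loader by 0.76 and LIG1, DNA ligase I, by 0.63. Of 23 p53 target genes 4 rose and 4 fell (17.4% each way, against 9.43% and 9.99% of all genes). TP53INP1 rose by 1.07, while SESN2, also a stress response gene, fell by 1.89 and the death receptor TNFRSF10B by 0.86. In the BCL2 family 16.7% of 18 genes were called with each siRNA, against 19.4% of all genes. PMAIP1 (-1.10) and BCL2L2 (-0.90) fell and BNIP3L rose by 0.55.

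Among splicing factors, hnRNP genes (25.8%) and SR genes (20.8%) were called with each siRNA at shares near the 19.4% of all genes. Of 59 core spliceosome components 0 rose and 4 fell (6.78%, below the 9.99% of all genes), among them LSM8, a subunit of the U6 snRNA-binding ring. LSM8 was at 6.33, 6.56 and 6.31 with A2, 6.44, 6.49 and 6.23 with A3 and 6.69, 6.63 and 6.66 with Q3, against 7.58, 7.49 and 7.60 with siNeg, with no overlap (change -1.08, SE 0.10, adjusted p = 1.47e-13). PLRG1 fell by 0.85 and PRPF3 by 0.75. Of 31 hnRNP genes 3 rose and 5, HNRNPH1 included, fell: TAF15 by 0.59, RBMX by 0.50 and HNRNPUL2 by 0.43, while HNRNPA1 rose by 0.67. HNRNPDL fell by 0.77 on the probe that stands for it and rose by 0.60 on another. Of 24 SR proteins and SR kinases SRPK1 (-0.76), SRSF7 (-0.64) and SRSF6 (-0.40) fell, and SRPK2 (1.05) and SRSF4 (0.51) rose. The other probes of SRPK2 gave -0.06 and 0.02, and in the authors' deposited log2 values its change was -0.01. Of 13 nonsense-mediated decay factors 4 fell (30.8%, against 9.99% of all genes) and 0 rose. SMG5, NBAS, SMG9 and MAGOH fell by 0.52 to 0.63. Against siNeg replicates 1 to 3 NBAS (-0.08) and SMG9 (0.01) were not called. With the siRNA as a random block SMG5, NBAS and SMG9 lost the call. The array measures 1 or a few short stretches of each transcript, so exon choice was not measured.

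Further groups are set against all genes, of which 9.43% rose and 9.99% fell with each siRNA. Of 25 histone genes 9 rose with each siRNA and 1 fell. The rises were led by H2BC5 (2.79), H2AC6 (1.78) and H2BC12 (1.75), and the variant H2AZ1 fell by 0.41. H2BC5 was at 9.0, 8.88 and 8.96 with A2, 9.26, 9.10 and 9.33 with A3 and 8.21, 7.94 and 7.96 with Q3, against 6.05, 5.59 and 6.20 with siNeg. Of 32 immediate early and short-lived transcripts 13 rose (40.6%) and 3 fell. The RNA-binding protein ZFP36L2 rose by 2.11, and the stress factor ATF3 fell by 1.58. Of 27 heat shock and chaperone genes 10 rose and 2 fell, with CRYAB (1.87), HSPB1 (0.68) and HSP90AA1 (0.59) higher and the mitochondrial chaperone HSPA9 (-1.15) lower. Of 33 interferon response genes 7 rose (21.2%), among them IFI6 (1.44), and 3 fell (9.09%), among them MX1 (-0.92) and MX2 (-0.88).

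In lipid metabolism 8 of 25 cholesterol and fatty acid synthesis genes rose (32.0%), among them HMGCS1 (0.88) and the feedback protein INSIG1 (0.81), and 2 fell. Glucose uptake and hypoxia genes were split, with 5 higher (16.7%) and 7 lower (23.3%) of 30, against 9.43% and 9.99% of all genes. The vasodilator peptide ADM rose by 2.3, ANGPTL4, an inhibitor of lipoprotein lipase, by 1.96 and NDRG1 by 1.36, while VEGFA, the main growth factor of blood vessels, fell by 1.55. Another ANGPTL4 probe, detected on all 12 arrays, gave 0.27 (adjusted p = 0.11). A dimmer one gave 0.16 (adjusted p = 0.374), and neither was called. VEGFA averaged 5.48 with siHNRNPH1, against 7.03 in siNeg replicates 4 to 6, 5.70 in siNeg replicates 1 to 3 and 5.79 in Untreated cells, and gave -0.22 against siNeg replicates 1 to 3 (adjusted p = 0.246). Of 25 neuronal and neuroendocrine genes 4 rose and 5 fell: the neurotrophin receptor NGFR rose by 1.01 and secretogranin SCG2 fell by 1.17. Of 45 ribosomal protein genes 5 rose (11.1%, near the 9.43% of all genes), led by RPL29 (1.08), and 0 fell. The rises of RPL23 (0.55), RPS28 (0.54) and RPL13 (0.44) were -1.55, -1.77 and -0.17 against siNeg replicates 1 to 3. The same held for HSPA1A, an inducible chaperone (0.71, against -1.03), and MSMO1 of cholesterol synthesis (0.84, against -0.09).

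Small nuclear RNAs were among the rises, in classes chosen after their values were seen. Of 16 small Cajal body RNAs 10 rose with each siRNA and 0 fell, against 9.43% and 9.99% of all genes. These RNAs guide the modification of spliceosomal RNAs. Only 6 of the 16 were detected on all siNeg arrays, and 4 that rose were detected on none (SCARNA8, SCARNA20, SCARNA21 and SCARNA23), so the count leans to rises. SCARNA18 was at 8.64 with siHNRNPH1 and at 5.72 with siNeg (change 2.93, SE 0.13, adjusted p = 1.06e-25), and SCARNA16 was at 8.29 with siHNRNPH1 and at 5.38 with siNeg (change 2.92). The siRNAs were unequal: A2, A3 and Q3 gave 3.38, 1.56 and 3.85 for SCARNA18 and 3.79, 1.68 and 3.27 for SCARNA16. Of the 10 that rose, all but SCARNA9 changed least with A3. Of 13 snRNA genes 8 rose, among them RNU4ATAC of the minor spliceosome (1.5), RNU1-1 (1.30) and RN7SK, which holds back the elongation factor P-TEFb (1.27). By contrast 8 of 68 H/ACA snoRNAs (SNORA genes) and 5 of 65 C/D snoRNAs (SNORD genes) rose, shares near the 9.43% of all genes. Of 13 snoRNA host genes 4 fell, against 9.99% of all genes, and 0 rose. SNORA12 rose by 2.93, and SNORA79, detected on no siNeg array, was at least 5.84-fold higher (7.44 with siHNRNPH1 and 4.70 with siNeg). The snRNAs and small Cajal body RNAs were also higher with the other targets. Median changes with siHNRNPH1, siSUPT6H and siSF3B1 were 0.83, 0.85 and 1.12 for snRNAs and 1.84, 1.39 and 0.67 for small Cajal body RNAs. For RNU4ATAC and RN7SK the change was not called different from that with either other target, while RNU1-1 rose further than with siSUPT6H. Copies of snRNA genes are near identical, so their signals cannot be told apart.

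The 3 siRNAs differed from each other in 4713 genes (41.2%) by the F test, and by over 1 in 460 of them. Q3 stood furthest from the other siRNAs in 2394, A2 in 1122 and A3 in 1197. Of the 26 EWS-FLI1 repressed targets 21 differed among siRNAs and 19 changed least with Q3, and of the 38 matrix and mesenchymal genes 31 differed and 24 changed least with Q3. Of the 55 G2/M genes 36 differed and 44 changed least with Q3. Of the 46 stress response genes 23 differed and 13 changed least with Q3, against 3989 of all 11437 genes. HNRNPH1 itself averaged 8.85 with A2, 8.91 with A3 and 8.78 with Q3, which were not called different (F test, adjusted p = 0.637).

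The gene that differed most among siRNAs was VGF, a secreted neuropeptide precursor. VGF was at 7.49, 7.37 and 7.12 with A2, 8.70, 8.86 and 8.69 with A3 and 4.26, 4.50 and 4.40 with Q3, against 4.82, 5.26 and 4.92 with siNeg. It was above siNeg with A2 and A3 (changes 2.33 and 3.75) and was detected on no Q3 array, where the measured change was -0.61. MMP11, a matrix metalloproteinase, gave 2.90, 3.01 and -0.06, and SCARNA13 gave 3.40, 0.88 and 3.21. CCN2, which encodes connective tissue growth factor, rose with A2 (1.69) and Q3 (2.18) but not with A3 (0.21, adjusted p = 0.0993). H19, detected on no siNeg array, averaged 5.04 with A2, 7.52 with A3 and 5.48 with Q3. In all 77 genes, VGF and HNRNPH2 among them, were called with all 3 siRNAs but not in 1 direction, and the odd siRNA was Q3 in 52 of them, A3 in 16 and A2 in 9.

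Changes with siHNRNPH1 were set against those with siSUPT6H and siSF3B1, each from its own siNeg arrays (replicates 4 to 6 for siHNRNPH1, 1 to 3 for the others). The target and the authors' normalization run differ together in this comparison and cannot be told apart. The change differed from that with siSUPT6H in 3462 genes (30.3%) and from that with siSF3B1 in 5998 (52.4%). Of the 1079 genes that rose with each siHNRNPH1 siRNA, 554 were further up than with siSUPT6H and 761 further up than with siSF3B1. Of the 1142 that fell, 385 were further down than with siSUPT6H and 437 further down than with siSF3B1. Over all genes the change was higher than with siSUPT6H in 13.7% and lower in 16.5%. It was higher than with siSF3B1 in 29.6% and lower in 22.8%. The 1079 and 1142 genes were chosen by their siHNRNPH1 changes, which also enter the differences. Their counts therefore lean to larger changes and are descriptions.

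IGFBP3, DKK1 and MGP differed from both other targets. IGFBP3 changed by 4.04 with siHNRNPH1, -1.06 with siSUPT6H and -1.73 with siSF3B1 (differences 5.10 and 5.77, adjusted p = 6.23e-32 and 1.98e-34). DKK1 changed by 3.36 with siHNRNPH1, -1.53 with siSUPT6H and -1.32 with siSF3B1. MGP changed by 4.42 with siHNRNPH1, 0.47 with siSUPT6H and -0.72 with siSF3B1. For COL1A1 the differences were 3.99 from siSUPT6H and 3.80 from siSF3B1, and for CCL2 4.10 and 3.74. In the matrix list 23 of 38 genes were further up than with siSUPT6H and 26 than with siSF3B1, and in the EWS-FLI1 repressed list 18 and 20 of 26 were, against 13.7% and 29.6% of all genes.

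Other rises were of like size with siSUPT6H. TRIM55 changed by 3.82 with siHNRNPH1 and 3.57 with siSUPT6H (difference 0.25, SE 0.16, adjusted p = 0.245), but by -1.02 with siSF3B1. The difference from siSUPT6H was 0.06 (SE 0.16) for VASN, -0.16 (SE 0.13) for CDKN1A and -0.26 (SE 0.16) for SNORA12, none of them called. Lower than with siSUPT6H were the heat shock genes HSPA1A (-2.03) and HSPA1B (-1.81), AADACL4 (-1.85) and SOX1-OT (-1.80). Lower than with siSF3B1 were SNORD31 (-2.81), the host genes SNHG1 (-2.78) and SNHG15 (-2.58), and SNORD14A (-2.39), which was detected on 1 of 9 siHNRNPH1 arrays.

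Stress response genes were low in the median with all 3 targets, but single genes differed. Their median change was -1.52 with siHNRNPH1, -1.56 with siSUPT6H and -1.27 with siSF3B1. Of the 46 genes, 11 were higher and 9 lower than with siSUPT6H, against 13.7% and 16.5% of all genes. Set against siSF3B1, 12 were higher and 22 lower, against 29.6% and 22.8% of all genes. ASNS changed by -3.32 with siHNRNPH1, -3.48 with siSUPT6H and -3.33 with siSF3B1, and the differences were 0.17 (SE 0.11) and 0.01 (SE 0.11), neither of them called. DDIT3 changed by -2.87 with siHNRNPH1, -3.78 with siSUPT6H and -0.55 with siSF3B1 (differences 0.92 and -2.31, adjusted p = 1.68e-07 and 3.02e-21). G2/M genes had medians of -0.41 with siHNRNPH1, -0.82 with siSUPT6H and 0.13 with siSF3B1, and the change was higher than with siSUPT6H in 34 of 55, against 13.7% of all genes. LSM8 was lower than with both (differences -1.14 and -1.27).

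**Figure D5:**
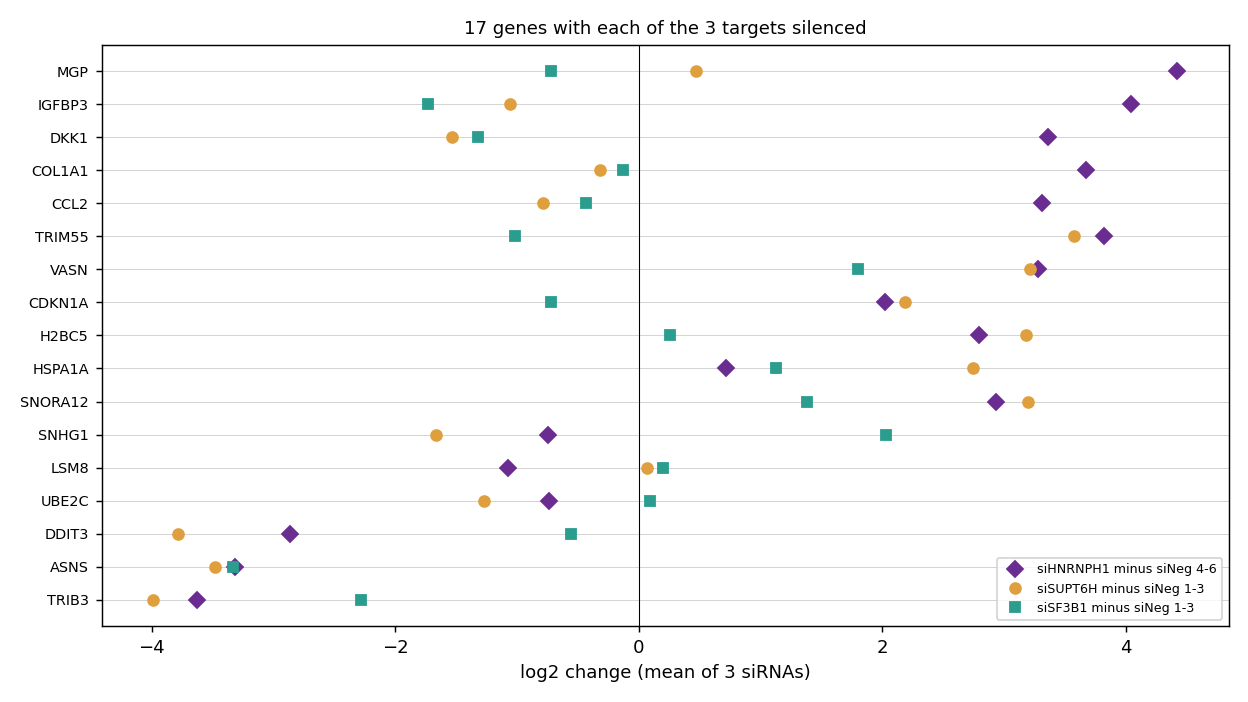
Log2 change in the mean of 3 siRNAs for 17 named genes with siHNRNPH1 (against siNeg replicates 4 to 6), siSUPT6H and siSF3B1 (both against siNeg replicates 1 to 3). MGP, IGFBP3, DKK1, COL1A1 and CCL2 lie above 3 with siHNRNPH1 and below 1 with the other 2 targets, TRIM55 and VASN lie above 3 with siHNRNPH1 and siSUPT6H, and ASNS lies near -3.3 with all 3.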

How the data were processed

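The deposited bead signals are average intensities per probe, neither background-subtracted nor normalized, with a detection p-value for each, per the file headers. A second table holds log2 values that the authors normalized with R 3.0.2 and lumi after GenomeStudio, per the submitters' processing notes, by a method not given in the sources used here. In it 12 arrays (siHNRNPH1, siNeg replicates 4 to 6) share 1 distribution and 24 another. The Untreated columns of the first table were matched by elimination.

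Intensities of 36 arrays were normalized together with neqc (limma 3.58.1, R 4.3.3), which adds an offset of 16 and so understates changes of dim genes. Of 47323 probes 30113 had 1 symbol, 8 several and 17202 none, and the last 2 kinds were not named. Probes with detection p below 0.01 on at least 3 arrays were kept (19738), and the brightest probe stood for its gene (11437 genes). One limma model with 12 groups (24 residual degrees of freedom, intensity trend) gave two-sided tests with Benjamini-Hochberg adjustment over all genes. Where 1 group detected a gene on none of its arrays, the fold is a lower bound, set from the dimmest detected probe. In simulated data of this size and array spread, with no difference among siRNAs, changes of 0.5 and 1 were recovered at 71% and 99% in the mean and at 34% and 95% with each siRNA.

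Named genes were the 15 largest rises and falls among genes called with each siRNA, 9 genes named whatever their result, the members of each list with the largest changes, the 6 smallest F test p-values, and 4 each way between targets. Members and lists were chosen with earlier results of these data known. Alternatives covered background, normalization, filters, probe choice, siNeg arrays, siRNA as a block and left-out arrays. The number of arrays limits the precision.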

Additional observations from a re-analysis of the deposited data

Results flagged for a closer look

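HNRNPH2, IGFBP4 and VGF changed in opposite directions with different siRNAs, and each differed among them in the limma F test. The 3 siRNAs' log2 changes spanned 4.36 in VGF, 1.60 in IGFBP4 and 1.20 in HNRNPH2. IGFBP4, a binding protein of insulin-like growth factors, gave 0.28, 1.10 and -0.50 with A2, A3 and Q3, and HNRNPH2 gave 0.28, -0.60 and 0.59. VGF gave 2.33, 3.75 and -0.61, and no Q3 array detected it. No cause was tested.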

How the results depend on the processing

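The fall of HNRNPH1 kept its direction and call under every alternative run (-1.40 to -1.31 with 1 array left out). Stress response genes that fell with each siRNA numbered 36 to 39 over the alternatives (37 to 37 with 1 array left out). With 1 array left out, 4441 to 5154 genes were called in the mean, 1925 to 2121 with each siRNA, 4261 to 4750 among siRNAs, 3040 to 3463 against siSUPT6H and 5579 to 6038 against siSF3B1; EWS-FLI1 repressed targets that rose were 13 to 14, activated targets that fell 6 to 9, matrix genes that rose 20 to 23 and G2/M genes that fell 16 to 20. The siRNA as a random block (estimated correlation 0.451) left 1622 genes called in the mean and siRNA means as replicates 2369, against 5160; of 207 named values tested, 45 and 26 lost their call. Against siNeg replicates 1 to 3 3710 genes were called with each siRNA, against 2221, and HNRNPH3 (-0.41), SF3B1 (0.29), DUSP6 (-0.0438), PAPPA (-0.26), SMG9 (0.0132), HSPA1A (-1.03), MSMO1 (-0.0861), RPL23 (-1.55), RPS28 (-1.77) and RPL13 (-0.17) turned, while 19 lost and 4 gained a call; against all 6 siNeg arrays HSPA1A (-0.16), RPL23 (-0.50) and RPS28 (-0.61) did. Without siRNA Q3, 17 activated targets and 43 G2/M genes fell, and without A3 IGFBP4 gave -0.11. The mean of all kept probes left 5 activated targets, and in the authors' values SRPK2 was -0.0122. The causes were not tested. In the authors' values 1937 genes remained called with each siRNA (87.2% of 2221). A replicate block by number called 5209 genes in the mean and 2245 with each siRNA; the numbers do not pair the arrays, since 0 of 18 same-numbered pairs correlated over 0.1 (-0.08 to 0.08) and 3 of 12 arrays correlated best with their own number. Signal over background limits FLI1 and other dim genes.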

Other observations

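A gene could rise on 1 probe and fall on another. Of 3008 genes with more than 1 kept probe, 4 had probes that were called with each siRNA in opposite directions, ALDH3A2, DEF8, HNRNPDL and ZNF876P, named here after their values were seen, and 287 had several probes called in 1 direction. DEF8 rose by 0.84 and 0.59 on 2 probes and fell by 0.64 on 1 more that was designed on another transcript accession, and its call was lost with the siRNA as a random block (adjusted p = 0.116). ALDH3A2, a fatty aldehyde dehydrogenase, gave 0.47, 0.43 and -0.73, the last on a probe detected on 4 of 9 siHNRNPH1 arrays. HNRNPDL gave -0.77 and 0.60, and ZNF876P 0.40 on 1 probe. Its other probe was detected on 0 of 9 siHNRNPH1 and 2 of 3 siNeg arrays, with measured means of 4.52 with siHNRNPH1 and 4.98 with siNeg. For the polypyrimidine tract protein PTBP2, changes on its 2 probes were 0.12 and 0.49 with A2, 0.10 and 0.46 with A3 and 1.79 and 1.96 with Q3.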
